A study of Arabidopsis thaliana with 6 samples.

Results

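EXPA7 (AT1G12560) and EXPA18 (AT1G62980) are a pair of alpha-expansin genes of Arabidopsis thaliana that serve as markers of root hair cells. They were taken from the deposited array table by name, as the rows whose single annotated gene was one or the other. Each gene had 1 row, so the rule of using the row with the highest mean made no choice, and the pair makes up 2 of the 16548 genes tested. Both lie on chromosome 1. No coordinates are printed, since the sources used here do not name the build behind the array.

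Roots of Col-0, the standard wild-type accession, were profiled after 8 weeks of hydroponic growth at 22 °C in short days. The medium of all plants, MGRL, had its sulfate exchanged for chloride, and sulfur was then given back in 1 of 2 forms. The sulfate group received 300 µM sodium sulfate and the thiosulfate group 150 µM sodium thiosulfate, whose anion carries 2 sulfur atoms. Each group has 3 arrays of whole-root RNA, labelled as biological replicates. Nothing says that they came from separate cultures, and the p-values cover no more than the spread among these arrays, which may be technical. The comparison asks whether root hair marker transcripts differ between roots fed sulfate and roots fed the more reduced thiosulfate.

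A root hair is a tubular outgrowth of a single epidermal cell, a trichoblast, that grows at its tip and takes up water and nutrients. Expansins are secreted proteins that loosen the cell wall at acidic pH without cutting its polysaccharides, which lets the wall yield as the cell swells and elongates. EXPA7 and EXPA18 are switched on in hair-forming cells of the root epidermis around the time the hair bulge appears, downstream of the basic helix-loop-helix regulators RHD6 and RSL4, whereas GL2 keeps the hair programme off in the neighbouring non-hair cells.

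One array stood apart in the shape of its values. Over all genes tested, thiosulfate replicate 1 had a lower quartile of 1.14 on the log2 scale, against 1.29 to 1.37 on the other 5 arrays, and an upper quartile of 4.50, against 4.33 to 4.40. It held the highest value of 18.5% of genes and the lowest of 23.6%. Array medians were close, at 2.34 to 2.39. The members' rows, between 2.14 and 3.33 on all arrays, lay near these medians. No background bound was used, and levels of different genes on an array do not rank their transcripts.

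Neither expansin differed between the groups beyond the spread of the arrays. EXPA7 stood at 3.19, 2.41 and 2.24 (log2) on sulfate replicates 1, 2 and 3, and at 3.09, 2.79 and 2.71 on the thiosulfate arrays in the same order. The groups overlapped, because sulfate replicate 1 was the highest of all 6 arrays while the other sulfate arrays were the lowest. The means were 2.61 ± 0.51 in sulfate and 2.86 ± 0.20 in thiosulfate (SD, n = 3 each). The difference, thiosulfate minus sulfate, was 0.25 on the log2 scale (SE 0.25, 95% interval -0.30 to 0.81), or 1.19-fold with an interval of 0.811 to 1.75. The adjusted p was 0.782 by limma with Benjamini-Hochberg adjustment over all genes. In the same fit 2 of the 16548 genes, or 0.0121%, passed an adjusted p of 0.05.

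EXPA18 stood at 2.61, 2.32 and 2.14 on the sulfate arrays and at 3.33, 2.27 and 2.41 on the thiosulfate arrays. Thiosulfate replicate 1 was well above the rest, and the other thiosulfate arrays fell within the range of the sulfate arrays. The means were 2.36 ± 0.23 in sulfate and 2.67 ± 0.58 in thiosulfate (SD, n = 3 each). Their difference was 0.31 on the log2 scale (SE 0.27, 95% interval -0.30 to 0.92), a fold of 1.24 with an interval of 0.813 to 1.90 and a limma adjusted p of 0.749. In the main limma fit, the interval of the listed values left out a 2-fold change in either direction for both genes. That fit shares variance among genes, and both members varied more than most genes. With no shared variance, ordinary t tests gave an unadjusted p of 0.467 for EXPA7 and 0.433 for EXPA18. In the main fit the unadjusted limma p was 0.331 and 0.278. Intervals with no shared variance are not given here, so a 2-fold change is not firmly excluded. In whole roots, a change in the number of hair cells and a change in transcript per hair cell cannot be told apart.

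**Figure D1:**
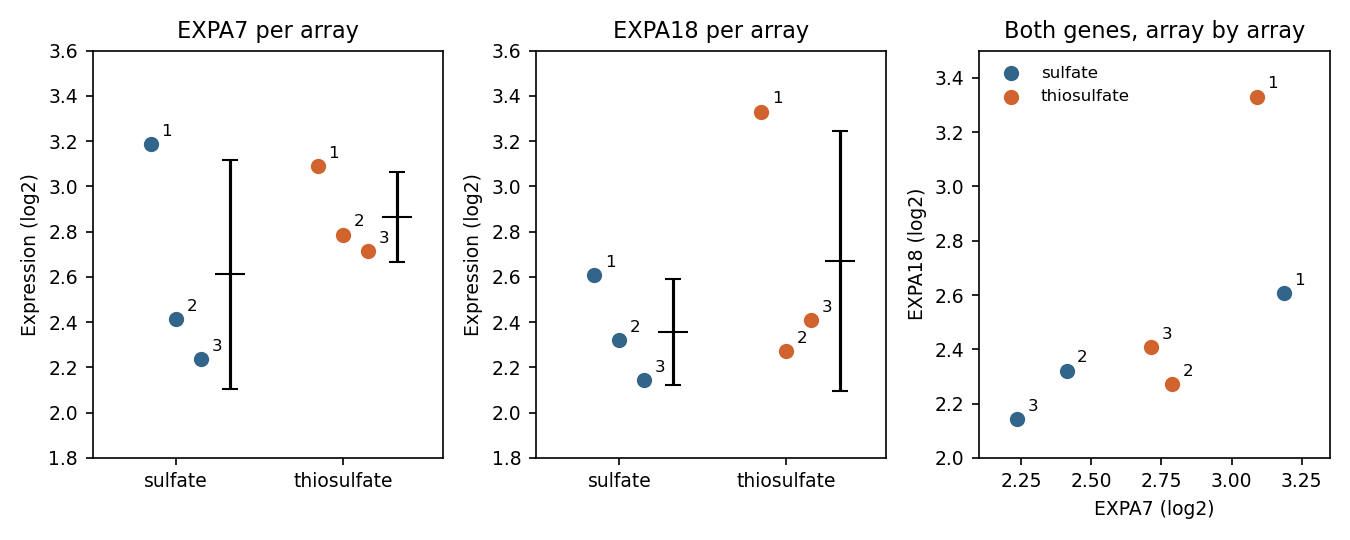
The left and middle panels plot the log2 expression of EXPA7 and EXPA18 on each array, numbered by replicate, with the group mean and SD (n = 3) as a black bar beside the points; the right panel sets both genes against each other, with a point for each array. The groups overlap for both genes, and replicate 1 is the highest array of its group in each.

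These differences moved with single arrays. Without thiosulfate replicate 1 the difference of EXPA18 was -0.018 (log2) and that of EXPA7 was 0.14. Without sulfate replicate 1 the difference of EXPA7 was 0.54, with an unadjusted limma p of 0.0189 and a limma adjusted p of 0.423, and that of EXPA18 was 0.44. Without sulfate replicate 3, the lowest array for both genes, the differences were 0.064 for EXPA7 and 0.21 for EXPA18. Without sulfate replicate 2 that of EXPA7 was 0.15. Without thiosulfate replicate 2 that of EXPA18 was 0.51. The spread within groups was wide for both. The pooled SD was 0.38 for EXPA7 and 0.44 for EXPA18, larger than in 89.1% and 93.7% of the genes tested.

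No unequal change of the pair was detected. EXPA18 minus EXPA7, taken within each array, was -0.25 ± 0.28 in sulfate and -0.19 ± 0.39 in thiosulfate (log2, SD, n = 3 each). The difference of 0.061 had an exact permutation p of 0.9, where 0.1 is the smallest that 3 against 3 arrays can give. It was -0.10 without sulfate replicate 1 and -0.16 without thiosulfate replicate 1, so it has no settled sign.

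Array by array, the pair tended to be high or low together. Sulfate replicate 1 and thiosulfate replicate 1 held the upper 2 values of both genes, and sulfate replicate 3 held the lowest of both. Pearson's r over the 6 arrays was 0.72 and Spearman's rho 0.77, with exact permutation p-values of 0.083 and 0.10 (two-sided). Adjusted over the 15 relations computed among root hair genes, the exact permutation p-values were 0.235 and 0.292, so the relation did not pass. Without sulfate replicates 1 and 3, the 2 arrays farthest from the median of EXPA7, r was 0.81. On deviations from the group means r was 0.67. Of the other 16547 genes, 6.27% had an r with EXPA7 at least as high as that of EXPA18.

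Other genes of root hair growth offer a wider view of the same cells. Of 50 genes on a list for hair growth and the hair wall, 7 were named by the annotation used. RHD2, COBL9, LRX1, PRP3 and the rest were not analysed here. None of the 7 passed over all genes. An unadjusted limma p under 0.05 was reached by 2 of 7, both higher in thiosulfate, against 10.0% of all genes tested, 5.39% higher and 4.64% lower. That count was 1 after a further quantile normalization, 1 without sulfate replicate 2 or thiosulfate replicate 3, 0 without sulfate replicate 3 or thiosulfate replicate 1, and 3 without thiosulfate replicate 2. It was also 1 with every row tested (AT4G26010) and 1 with no shared variance (SCN1). Means were higher in thiosulfate for 5 of 7, against 47.1% of all genes, and lower for FER and AT4G25790. The list's median difference was 0.25 (log2), against -0.016 over all genes tested; it was 0.071 without thiosulfate replicate 1, 0.15 without sulfate replicate 3 and 0.51 without thiosulfate replicate 2.

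The 2 genes with an unadjusted p under 0.05 in the main limma fit act in the wall. AT4G26010 encodes a class III peroxidase, one of the wall enzymes that cross-link structural proteins. It stood at 5.32, 5.03 and 4.40 in sulfate and at 6.48, 5.30 and 5.93 in thiosulfate. Thiosulfate replicate 2 fell just under the highest sulfate array, so the groups overlapped narrowly. The difference was 0.98 on the log2 scale (SE 0.32, 95% interval 0.27 to 1.70), or 1.98-fold, with an unadjusted limma p of 0.0126 and a limma adjusted p of 0.369. Without thiosulfate replicate 1 it was 0.69, with an unadjusted limma p of 0.0513. AT5G04960, a pectin methylesterase gene, stood at 3.48, 3.01 and 2.78 in sulfate and at 3.93, 3.23 and 4.02 in thiosulfate. Here too thiosulfate replicate 2 lay below sulfate replicate 1. Its difference was 0.64 (SE 0.25, 95% interval 0.07 to 1.21), with an unadjusted limma p of 0.0312 and a limma adjusted p of 0.436. Without thiosulfate replicate 1 it was 0.54, with an unadjusted limma p of 0.0993. The pooled SDs of AT4G26010 and AT5G04960 were larger than in 97.5% and 90.5% of the genes tested. With no shared variance, ordinary t tests gave unadjusted p-values of 0.0881 and 0.120, so neither was under 0.05.

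SCN1, which confines hair initiation to a single site per cell, was the 1 gene of the 7 whose groups did not overlap, being higher in thiosulfate, as were 7.11% of all genes tested. It stood at 4.17, 4.18 and 4.01 in sulfate and at 4.51, 4.30 and 4.32 in thiosulfate. The difference was small, at 0.25 (95% interval -0.07 to 0.58, limma adjusted p = 0.594). With no shared variance, an ordinary t test gave an unadjusted p of 0.0402, against 0.107 in the main limma fit. XTH26, a xyloglucan endotransglucosylase/hydrolase of the hair wall, had a difference of 0.35 (95% interval -0.31 to 1.02). It was 0.071 without thiosulfate replicate 1, 0.15 without sulfate replicate 3 and 0.66 without thiosulfate replicate 2, the last with an unadjusted limma p of 0.0316 and a limma adjusted p of 0.422. GH9C1, a family 9 glycosyl hydrolase, lay at 2.04, 2.04 and 2.03 in sulfate but at 2.97, 1.45 and 2.13 in thiosulfate. Its highest and lowest values were thus both in thiosulfate, and its difference of 0.15 (95% interval -0.58 to 0.87) turned to -0.25 without thiosulfate replicate 1. FER, a receptor-like kinase needed for hair growth and active in many other cells, had a difference of -0.0014 (95% interval -0.40 to 0.40). AT4G25790, of the CAP superfamily of secreted proteins, had one of -0.068 (95% interval -0.51 to 0.38).

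Together with EXPA7 and EXPA18 these make 9 root hair genes, and they shared their high and low arrays. All 9 lay above their own mean on thiosulfate replicate 1, against 46.4% of all genes tested, and 6 of 9 had their highest value there. EXPA7 and AT4G25790 were highest on sulfate replicate 1, and AT5G04960 on thiosulfate replicate 3. The lowest value of 6 of 9 was on sulfate replicate 3, against 16.8% of all genes tested. The exceptions were FER, GH9C1 and AT4G25790. The part that the wider value range of thiosulfate replicate 1 plays in this was not tested.

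**Figure D2:**
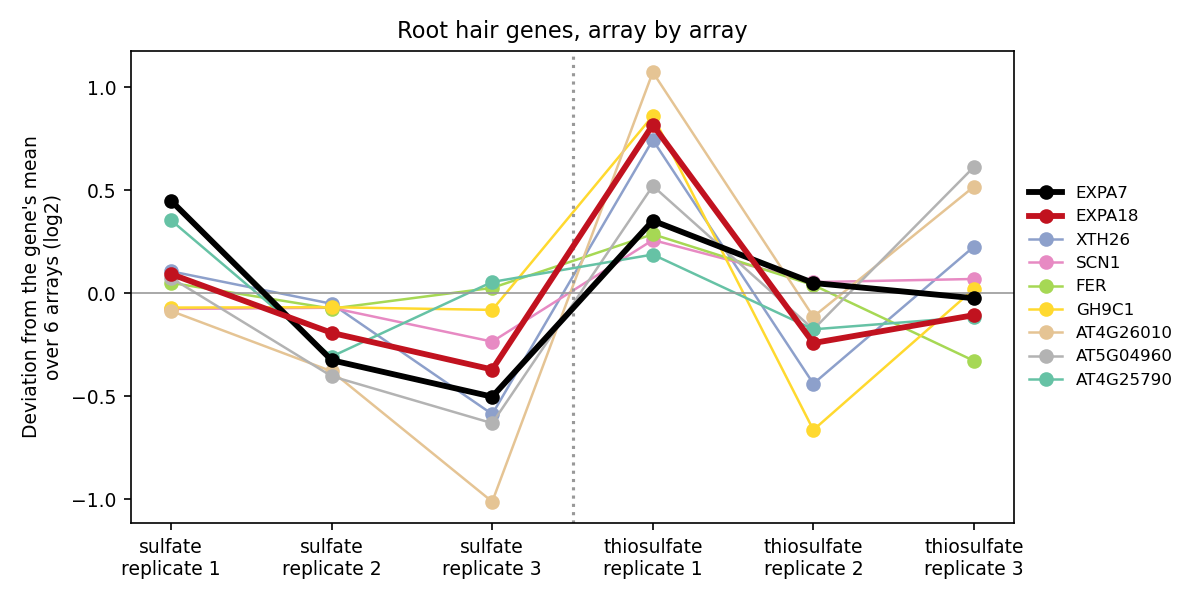
Each line follows a gene over the 6 arrays, as its log2 deviation from its own mean over them; lines join the points of a gene and imply no order of the arrays. EXPA7 (black) and EXPA18 (red) are drawn thick, and all 9 genes lie above 0 on thiosulfate replicate 1.

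All 7 genes correlated positively with each expansin over the 6 arrays, as did 50.0% of all genes with EXPA7 and 46.9% with EXPA18. With EXPA18, r ran from 0.53 for AT4G25790 to 0.90 for XTH26, with a median of 0.79, against a median of -0.047 over all other genes. With EXPA7 it ran from 0.33 for GH9C1 to 0.71 for AT4G26010, with a median of 0.64, against 0.00028 over all other genes. An r with EXPA7 at least as high was found in 27.6% of all other genes for GH9C1 and in 6.42% for AT4G26010. XTH26 was closest to EXPA18 (r = 0.90, rho = 0.94, exact permutation p = 0.00694 and 0.0167), and 1.08% of all other genes had an r with EXPA18 at least as high. AT4G26010 followed EXPA18 with r = 0.83 and rho = 0.89 (exact permutation p = 0.0278 and 0.0333). None of the 15 relations passed adjustment over the 15, the smallest adjusted exact permutation p being 0.104.

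The relations with EXPA18 differed in how far they rested on the replicate 1 arrays. Without sulfate replicate 1 and thiosulfate replicate 1, the arrays farthest from the median of EXPA18, r with EXPA18 was 0.94 for XTH26, 0.93 for AT4G26010, 0.85 for AT5G04960 and 0.83 for SCN1. For GH9C1 it dropped from 0.86 to 0.20, for FER from 0.63 to -0.83 and for AT4G25790 from 0.53 to -0.61, so these 3 relations rested on those arrays. With EXPA7, whose farthest arrays were sulfate replicates 1 and 3, r without them stayed positive for all 7 genes. It ran from 0.55 for GH9C1 to 0.98 for SCN1. With 2 arrays left out, each such r rests on few points. On deviations from the group means, r with EXPA18 lay between 0.60 and 0.90 for the 7 genes. The points share the arrays and their scaling.

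**Figure D3:**
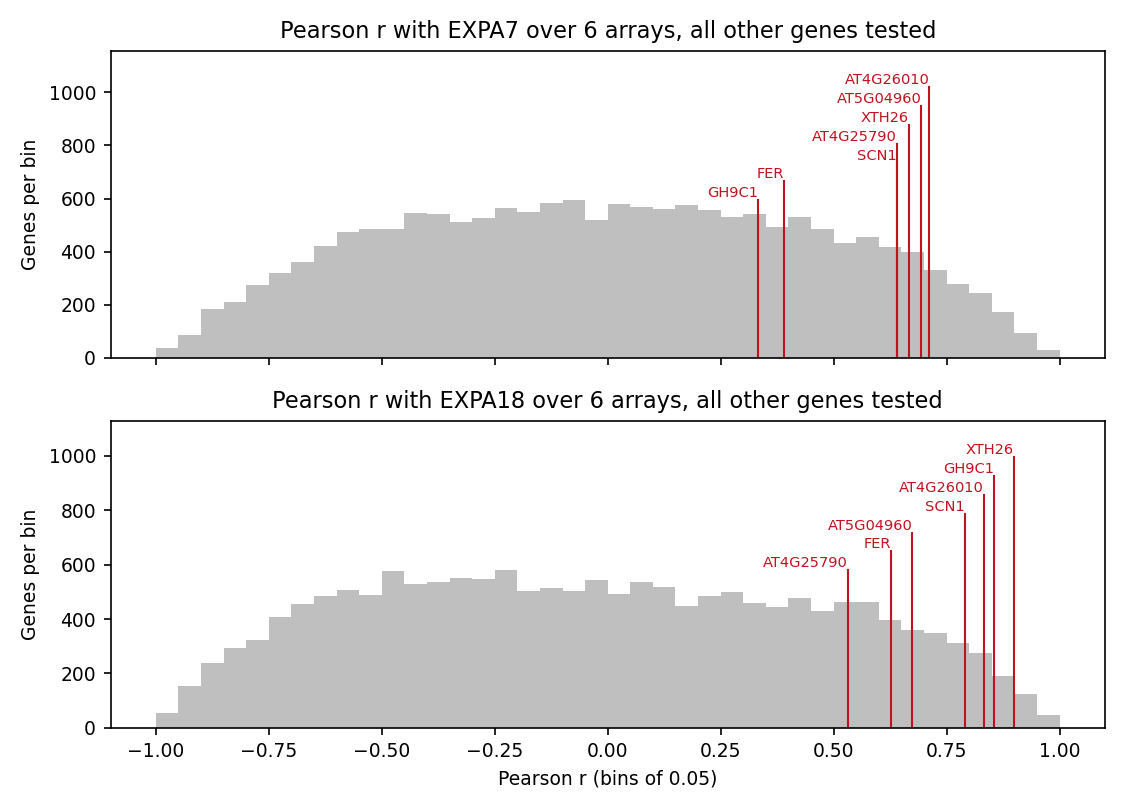
Grey bars count the genes tested by their Pearson r with EXPA7 (top) or EXPA18 (bottom) over the 6 arrays, in bins of 0.05; red lines mark the 7 other root hair genes. All 7 lie to the right of 0 in both panels, between 0.33 and 0.71 for EXPA7 and between 0.53 and 0.90 for EXPA18. Of all genes, 50.0% lie to the right of 0 for EXPA7 and 46.9% for EXPA18.

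Across all genes, those most like the pair were sought among 1420 genes whose mean was at or above the median gene's and whose SD over the arrays was no smaller than that of the less variable member. The 5 with the highest r with the mean of EXPA7 and EXPA18 over the 6 arrays were SD1-29 (r = 0.97), AT2G12462 (0.97), AT4G15160 (0.97), AT2G24170 (0.97) and HRGP1 (0.96). In total 28 of the 1420 reached an r of 0.9. The 7 other root hair genes were not among the closest. Among all 16546 other genes, they ranked from 353 (XTH26, r = 0.85) to 2525 (FER, r = 0.56) by r with that mean. Many genes outside the root hair list thus followed the pair more closely. HRGP1 (AT3G54590) encodes a hydroxyproline-rich glycoprotein, a structural protein of the wall. It stood at 4.45, 3.36 and 2.95 in sulfate and at 5.76, 4.18 and 4.28 in thiosulfate. That its array order was close to that of the pair follows from how it was chosen. Its difference was 1.15 (SE 0.47, 95% interval 0.10 to 2.20, limma adjusted p = 0.455), and 0.64 without thiosulfate replicate 1. With no shared variance, an ordinary t test gave HRGP1 an unadjusted p of 0.165. SD1-29, a lectin-type receptor kinase, had a difference of 0.35 that turned to -0.077 without thiosulfate replicate 1. The differences of AT2G12462, AT4G15160 and AT2G24170 were 0.37, 0.54 and 0.30, and 0.16, 0.27 and 0.028 without thiosulfate replicate 1.

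Regulators of the hair programme were scarcely named by the annotation used. Of 9 bHLH genes on the list, 2 were measured. RHD6 and RSL4, also on the list, had no row that named them alone, and whether the array covers them was not tested. AT2G14760 (RSL3) had a difference of 0.20 (95% interval -0.20 to 0.60) and AT5G43175 (RSL5) one of 0.043 (-0.32 to 0.40). That of AT2G14760 was 0.076 without sulfate replicate 3 and 0.078 without thiosulfate replicate 1. Both were listed between 0.68 and 1.37 on all arrays, near or below the lower quartile of the arrays. Of 11 genes of epidermal patterning and the non-hair cell, the R3 MYB gene TRY (0.16) and the zinc finger gene JKD (-0.097) were measured. GL2, WER and CPC were not analysed here.

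Markers of other cells did not pass either. AT1G62500, the cortex marker CO2, was the only measured one of 10 genes of vascular and ground tissue and had a difference of -0.16. None of 5 root cap genes was named. Of 8 green tissue genes, RCA, Rubisco activase, and LHCB4.1, a light-harvesting protein, had differences of -0.093 and -0.21. RCA was listed between 3.58 and 3.80 and LHCB4.1 between 2.35 and 3.69. With so few markers, the makeup of the roots cannot be read from these arrays.

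The wider expansin family was well covered, with 23 of 35 genes measured, and its genes lay on both sides of 0. Means were higher in thiosulfate for 11 and lower for 12 (higher for 10 after a further quantile normalization or median centring), with a median difference of -0.063 against -0.016 over all genes tested. None passed over all genes. An unadjusted limma p under 0.05 was reached by 5 higher and 2 lower genes, 30.4% of the family against 10.0% of all genes tested. That split was 1 higher and 3 lower after a further quantile normalization, and 3 higher and 2 lower after median centring. It fell to 1 higher and 1 lower without thiosulfate replicate 1, and 2 to 3 higher genes were left without sulfate replicates 2 or 3 or thiosulfate replicates 2 or 3. Without sulfate replicate 1 it was 4 higher and 1 lower. Groups did not overlap in 5 of 23 genes, against 14.7% of all genes, with 2 higher in thiosulfate, against 7.11%, and 3 lower, against 7.57%.

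The smallest p-values of the family belonged to genes other than the root hair pair. EXPB3, a beta-expansin, stood at 5.71, 5.86 and 5.69 in sulfate and at 6.81, 6.29 and 6.83 in thiosulfate, with no overlap. Its difference was 0.89 (SE 0.18, 95% interval 0.49 to 1.29), or 1.86-fold, with a limma adjusted p of 0.259. EXPB5, of the same subfamily, had the lower mean in thiosulfate. It stood at 3.16, 3.22 and 2.79 in sulfate and at 2.26, 2.08 and 2.61 in thiosulfate, again with no overlap, and its difference was -0.74 (SE 0.19, 95% interval -1.17 to -0.32, limma adjusted p = 0.307).

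The remaining members with the smallest p-values had limma adjusted p-values between 0.418 and 0.507. EXLA1, an expansin-like gene, had a difference of 0.98 with a wide interval of 0.065 to 1.89. Its thiosulfate arrays stood at 5.05, 4.79 and 3.30, the last within the sulfate range of 3.13 to 3.79. Without thiosulfate replicate 3 its difference was 1.52 (limma adjusted p = 0.182), and without thiosulfate replicate 1 it was 0.64. EXPB2 had a difference of 0.60, EXPA4 one of 0.54 and EXPA15 one of 0.44. EXPA24 had one of -0.58 and EXPB4 one of -0.35.

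EXPA21, EXPA22, EXPA23, EXPA24, EXPA25 and EXPA26 (the last listed as EXP26) are a cluster of alpha-expansin genes with consecutive locus numbers, AT5G39260 to AT5G39310, grouped here after their values were seen. All 6 had lower means in thiosulfate, between -0.58 for EXPA24 and -0.065 for EXPA26, against 52.9% of all genes tested. EXPA21, EXPA22, EXPA23, EXPA24 and EXPA25 were lowest on thiosulfate replicate 1, the array that held the lowest value of 23.6% of all genes. EXPA21 was listed between 0.63 and 1.03, below the lower quartiles of the arrays (1.14 to 1.37). EXPA26 was listed at 0.72 on sulfate replicates 1 and 3. Near-identical copies can share probes, and this was not tested. EXPA23 varied most, at 1.16, 3.30 and 2.36 on the thiosulfate arrays. Without thiosulfate replicate 1 it turned to 0.41 and EXPA26 to 0.14. EXPA26 was at 0.43 without sulfate replicate 2, and EXPA25 at 0.085 without sulfate replicate 3. Of the 6, EXPA23 and EXPA26 had pooled SDs larger than in 99.7% and 99.3% of genes tested.

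**Figure D4:**
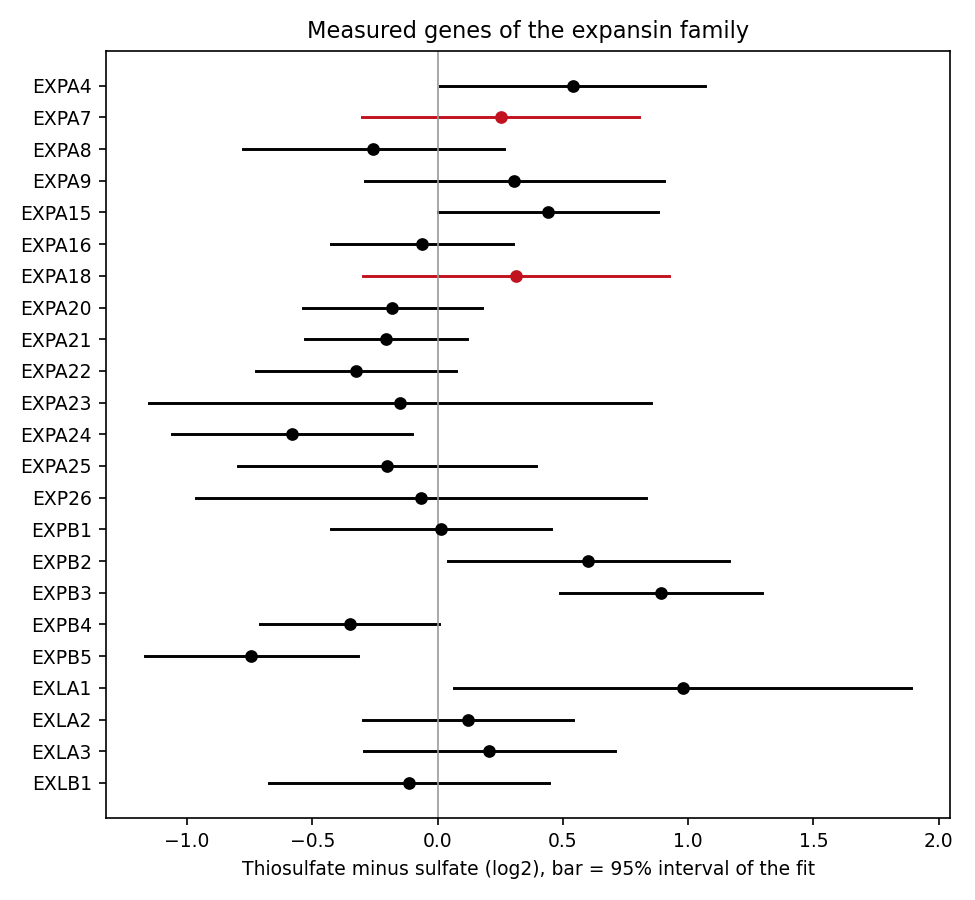
Points give the difference in log2 expression, thiosulfate minus sulfate, of the 23 measured expansin genes, and bars the 95% interval of the limma fit; EXPA7 and EXPA18 are red. Both intervals of the pair span 0, while those of EXPB3 and EXPB5 lie on opposite sides of it.

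Genes next to the pair on the chromosome were also read. Of the 3 measured genes on either side of each member, 12 in all, none passed over all genes, and their differences ran from -0.17 to 0.61. Means were higher in thiosulfate for 10 of 12, against 47.1% of all genes tested. An unadjusted limma p under 0.05 was reached by 2, both higher in thiosulfate, or 16.7% against 10.0% of all genes tested. AT1G12570, directly beside EXPA7, had a difference of -0.17 (95% interval -0.49 to 0.14). It was listed between 0.73 and 1.10, below the lower quartile of each array. AT1G62978 and AT1G62981, which flank EXPA18, had differences of 0.45 (-0.11 to 1.01) and 0.045 (-0.39 to 0.48). That of AT1G62978 was 0.19 without thiosulfate replicate 3 and 0.69 without thiosulfate replicate 1. AT1G62978 was highest on thiosulfate replicate 3, at 3.08, where EXPA18 was at 2.41.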

How the data were processed

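Root RNA was read on 6 Affymetrix arrays of 1 colour, 3 per group. The authors deposited log2 values made by RMA in Transcriptome Analysis Console 4.0, per the submitters' processing notes. RMA corrects background, normalizes quantiles and summarises probes, so these steps could not be varied. Slides, scan dates and genome build were unknown, and no batch was tested.

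The platform's annotation gave 1 gene for 16722 of 38408 rows. It gave several for 759 and listed no gene for 20927, so a gene not measured here may still be on the array. Names were brought up to date through RefSeq (assembly TAIR10.1), which matched 16574 rows and served for names and neighbours only. Of several rows per gene the one with the highest mean was kept, giving 16548 genes.

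The test was limma 3.58.1 in R 4.3.3 (group term, empirical Bayes, two-sided, Benjamini-Hochberg over all genes, threshold 0.05), checked on simulated data. Precision is limited by the number of arrays. Named were EXPA7, EXPA18, the 8 other expansins with the smallest p, all measured genes of the other lists, the adjacent genes and the 5 most similar genes. The expansins EXPA21, EXPA22, EXPA23, EXPA25 and EXPA26 fall outside this rule and were named after their values were seen. Members and lists were chosen with earlier results of these data known. Over all genes, same-numbered arrays did not deviate together (r = 0.056, -0.025 and -0.032), so numbers were not taken as pairs. For EXPA7 and EXPA18, however, replicate 1 was the highest array of each group. With the replicate number as a block, their unadjusted limma p was 0.192 and 0.139, against 0.331 and 0.278 without it. Alternatives were further quantile normalization, median centring, dim-gene filters, other row rules and variance models, a replicate block and leaving out each array. Plots used Python 3.11.15 and matplotlib 3.10.9.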

Additional observations from a re-analysis of the deposited data

How the results depend on the processing

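Neither EXPA7 nor EXPA18 passed in any of the 16 alternatives. With all arrays kept, the difference of EXPA7 ran from 0.16 to 0.25 and that of EXPA18 from 0.22 to 0.31 (log2), the lowest after a further quantile normalization. With the replicate number as a block the differences were 0.25 and 0.31, with limma adjusted p-values of 0.687 and 0.632; 0 genes in all passed that fit and 1717 had an unadjusted p under 0.05. Leaving out each array gave 0.064 to 0.54 for EXPA7, -0.018 to 0.51 for EXPA18 and -0.16 to 0.22 for EXPA18 minus EXPA7. The correlation of the pair ran from 0.62 with further quantile normalization to 0.88 without thiosulfate replicate 1. The count of 2 genes past the threshold was 1 with genes at or below the median level removed, 0 with every row tested (3502 rows at an unadjusted p under 0.05), 0 with no shared variance (1297 genes) and 0 to 2 with an array left out. None of the expansin or root hair genes passed in any alternative. The unadjusted count of 5 higher expansins fell to 1 with no shared variance. The expansin median was 0.13 without genes at or below the median level, which leaves 16 of the 23, and ran from -0.070 to 0.064 with an array left out.

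With an array left out, the sign turned for EXPA23 (-0.66 to 0.41), EXPA25 (-0.41 to 0.085), EXPA26 (-0.33 to 0.43), FER (-0.14 to 0.16), GH9C1 (-0.25 to 0.51), AT4G25790 (-0.24 to 0.092), AT5G43175 (-0.053 to 0.13), TRY (-0.081 to 0.31), JKD (-0.17 to 0.0095), LHCB4.1 (-0.57 to 0.10), AT1G62981 (-0.095 to 0.19) and SD1-29 (-0.077 to 0.72). The sign held but the size moved for EXPA4 (0.35 to 0.76), EXPA15 (0.28 to 0.54), EXPA22 (-0.45 to -0.18), EXPA24 (-0.72 to -0.38), EXPB2 (0.44 to 0.87), HRGP1 (0.64 to 1.58), AT2G12462 (0.16 to 0.57), AT4G15160 (0.27 to 0.75), AT2G24170 (0.028 to 0.51), AT1G62500 (-0.22 to -0.087), RCA (-0.14 to -0.052) and AT1G12570 (-0.22 to -0.10). The 3 arrays per group limit what changes could be detected, and no background bound was used.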
